A study of Mus musculus with 6 samples.

Results

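Flk1-positive cells of the mouse embryo were compared with whole embryos in which the Flk1 gene had been knocked out, across all genes of an Affymetrix array. The arrays were taken by their genotype labels, which gave 2 arrays of Flk1-positive cells and 2 arrays of Flk1 KO embryos, 4 of the 6 arrays of the study. The other 2 arrays hold wild-type (WT) embryos. All 3 groups are ICR mice at 8.5 days post coitum, with 3 to 4 somites, an age at which blood does not yet circulate. The embryo groups are the embryo proper. The design text of the series also names Flk1+/GFP embryos, and the sources used here do not give how Flk1-positive cells were selected or from which genotype. Selected cells thus stand against whole embryos of another genotype, and selection, genotype and handling of the tissue cannot be told apart in this contrast. Nothing in the labels states whether both arrays of a group stem from separate animals or pools. The p-values therefore reflect no more than the spread of these samples, possibly a technical one.

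Flk1, the product of the Kdr gene, is the main signalling receptor for vascular endothelial growth factor (VEGF). It marks the mesoderm that gives rise to endothelium, endocardium and the first blood cells. Mouse embryos without it form neither organised blood vessels nor yolk sac blood islands and die before midgestation. The contrast therefore sets cells of this lineage against embryos that should lack it, with neural, somitic, cardiac and gut tissue present.

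Values are deposited probe-set signals, and differences are given on the log2(signal + 21.6) scale, as Flk1-positive minus Flk1 KO with the standard error of limma, a linear model with a moderated spread. The added 21.6 understates the change of dim genes. A gene is represented by its brightest probe set. The background level of each array, a signal of 49.1 to 78.3, is the 95th percentile of 80 probe sets for odorant and pheromone receptors. Between 51.5% and 59.7% of all probe sets lay above it. Where both arrays of the dimmer group were at or below it and both of the brighter group above, the text gives a lower bound on the fold, taken over that level. The 2 arrays of Flk1-positive cells correlated at 0.982 and those of Flk1 KO embryos at 0.980, while arrays of different groups in the contrast correlated at 0.901 to 0.904. With 2 arrays per group, their number limits the precision.

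The labels were checked first. The Kdr signal was 3309 and 3328 on the Flk1-positive arrays, 29.5 and 63.8 in Flk1 KO embryos and 543.9 and 545.5 in WT embryos, and 1 of the 2 Flk1 KO values was above background. The sources used here do not give where its probe set lies relative to the deleted stretch, and Kdr is no finding, since it names both groups. The endothelial markers Cdh5 and Pecam1 went the same way, but they were chosen after their values were seen and are no check of the labels. Cdh5, the cadherin of endothelial junctions, gave 3487 and 3192 in Flk1-positive cells against 30.2 and 30.8 in Flk1 KO embryos, at least 45.8-fold higher. Pecam1, another adhesion molecule of endothelium, had 2680 and 2634 against 49.9 and 45.2, at least 36.6-fold higher, and neither gene was above background on a Flk1 KO array.

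Over the whole array, 4654 of 34621 probe sets (13.4%) gave higher signals in Flk1-positive cells and 5153 (14.9%) were lower, at a limma adjusted p under 0.05. By gene, 1960 of 15205 were higher (12.9%) and 2900 were lower (19.1%), and the median difference over all genes was -0.08. In bulk samples, fewer cells of a type and less RNA per cell cannot be told apart. Apart from the test, both Flk1-positive arrays lay above both Flk1 KO arrays for 29.2% of genes and below them for 39.9%. Differences of at least 4-fold numbered 451 genes higher (2.97%) and 497 lower (3.27%). Of the 451, 158 were not above background on either Flk1 KO array, and of the 497, 253 were not above it on either array of Flk1-positive cells. The counts of probe sets leaned on both arrays of Flk1-positive cells: 2555 were higher and 3260 lower without the first, and 2819 and 3162 without the second.

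**Figure D1:**
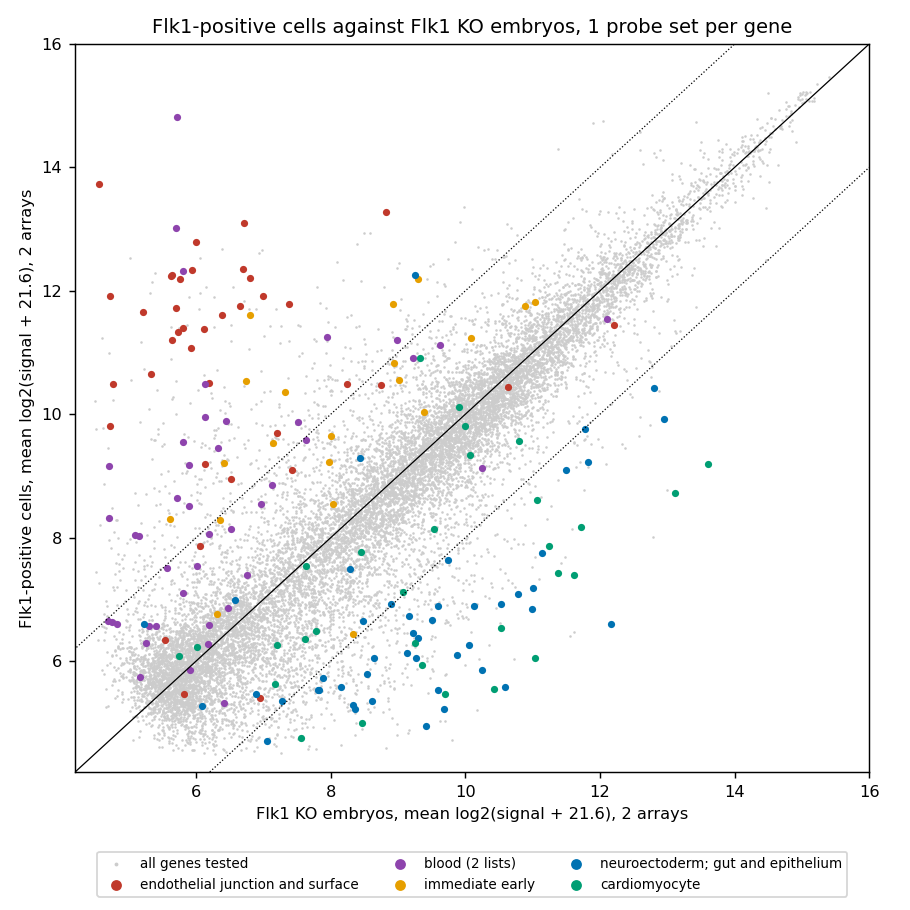
Each grey point is 1 of 15205 genes, with its mean log2(signal + 21.6) over 2 Flk1 KO arrays on the horizontal axis and over 2 arrays of Flk1-positive cells on the vertical axis; the solid line marks equality and dotted lines a 4-fold difference. Endothelial, blood and immediate early genes lie mostly above the line, and neuroectoderm, gut and cardiomyocyte genes mostly below it.

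The 15 largest rises held 3 globin genes and several genes known from endothelium, such as Lyve1, Mmrn2, Esam, Tie1, Cd93, Icam2, Sox18 and Clec14a. Lyve1, a hyaluronan receptor of lymphatic and some embryonic endothelium, gave 12892 and 14156 in Flk1-positive cells against 2.99 and 1 in Flk1 KO embryos, at least 185-fold higher (9.16 ± 0.17, adjusted p = 0.000107). Its 2 Flk1 KO values were at or near the floor of the scale, and WT embryos had 90.9 and 67.9. Ctla2a, a cysteine protease inhibitor, had 5492 and 6371 against 21.3 and 2.98, at least 81.0-fold higher (7.51 ± 0.30). Oit3, a secreted or membrane protein found on sinusoidal endothelium, had 3811 and 3854 against 3.21 and 6.49, at least 52.6-fold higher (7.19 ± 0.46). For these genes the groups did not overlap and no Flk1 KO array was above background. Mmrn2, an extracellular matrix protein of blood vessels, had 4544 and 4480 against 22.9 and 15.2, at least 61.9-fold higher (6.81 ± 0.15). Tie1, a receptor of the angiopoietin system, had 2227 and 2555 against 4.6 and 1.02, at least 32.9-fold higher (6.63 ± 0.19). The adjusted p-values of all 15 lay between 0.000107 and 0.00243. Ctla2a and Ctla2b are near-identical copies, as are several globin genes, and their probe sets may not tell them apart.

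**Figure D2:**
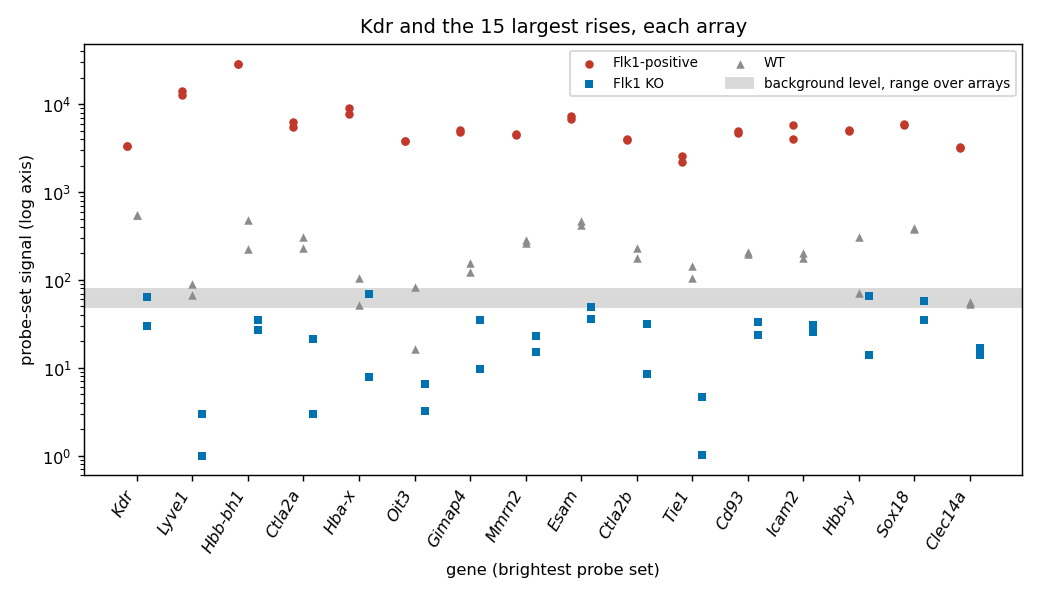
Signal on a log axis for Kdr and the 15 genes with the largest rises, with 2 points per group for Flk1-positive cells, Flk1 KO and WT embryos; the grey band spans the background levels of 49.1 to 78.3. In every gene shown, both arrays of Flk1-positive cells lie far above both Flk1 KO arrays, and the Flk1 KO points lie in or below the band.

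Genes were then grouped by role, in 31 lists holding 614 genes, of which 577 were tested. The lists and their members were chosen with earlier results of these data known, so their counts and medians are description and no test. Of the tested genes, 50 were in more than 1 list, so the lists are not separate observations. Of the 133 tested genes in 6 vascular lists, 108 were higher, 9 were lower and 16 did not pass the test, with a median difference of 3.28 against -0.08 over all genes. Of the 108, 36 were not above background on either Flk1 KO array, 12 were above it on 1 array and 60 on both. Over all probe sets, 57.1% lay above background in Flk1 KO replicate 1 and 57.3% in Flk1 KO replicate 2. The counts are therefore not read as a trait of vascular genes.

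Among VEGF ligands and receptors, 6 of 10 rose and 2 fell (median 1.26). The receptors rose, Kdr aside. Flt4, the receptor for VEGF-C, had 4124 and 4374 in Flk1-positive cells against 67.8 and 75.3 (5.52 ± 0.13). Flt1, a high-affinity receptor with weak kinase activity, had 1422 and 1326 against 84.3 and 47.4 (4.03 ± 0.28). The co-receptors Nrp1 and Nrp2 rose by less, 1.2 ± 0.19 and 1.33 ± 0.14. Of the ligands, Vegfc rose, with 1970 and 1770 against 603 and 850 (1.36 ± 0.22, adjusted p = 0.00919). Vegfa, the main ligand of Flk1, had 557 and 453 against 829 and 712 and did not pass the test (-0.59 ± 0.20, adjusted p = 0.0768). Vegfb (-0.79) and Pgf (-1.70) fell, but Vegfb lost its call without Flk1-positive replicate 1 or 2 or without Flk1 KO replicate 1 (adjusted p = 0.152, 0.0537 and 0.119). Pgf lost it without Flk1 KO replicate 1 or 2 (adjusted p = 0.0881 and 0.115).

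Of 5 genes of the angiopoietin system, 3 rose (median 4.28) and the other 2, both ligands, did not pass the test. Tek, the angiopoietin receptor, had 7965 and 7693 against 296 and 439 (4.36 ± 0.20). Ptprb, the phosphatase that acts on Tek and endothelial cadherin, had 1246 and 1049 against 38.7 and 38.1, at least 15.9-fold higher (4.28 ± 0.14). Tie1 was the other one. The ligands had differences of -0.36 ± 0.14 for Angpt1 and 0.10 ± 0.16 for Angpt2.

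Of 30 endothelial transcription factors, 25 rose and 2 fell (median 2.94). Of the SoxF factors, which act in vessel and lymphatic specification, Sox18 had 5813 and 5960 against 57.6 and 34.6 (6.47 ± 0.19), and Sox7 had 2695 and 2829 against 35.5 and 37.5, at least 38.0-fold higher (5.58 ± 0.13). Sox17, which also marks gut endoderm, rose less, from 369 and 921 to 4660 and 5039 (3.00 ± 0.40). The list also holds ETS factors, a family that binds many endothelial enhancers. Erg had 1975 and 2071 against 6.76 and 2.25, at least 27.9-fold higher (6.30 ± 0.14). Fli1 had 5957 and 7007 against 95 and 114 (5.69 ± 0.19), and Ets1 had 6886 and 7230 against 967 and 828 (2.95 ± 0.14). Etv2, the ETS factor that acts upstream in the blood and endothelial lineage, had 2629 and 2841 against 156 and 173 (3.89 ± 0.15), with both Flk1 KO arrays above background. The factors shared by blood and endothelial precursors also rose. Lyl1 had 2715 and 2689 against 52.9 and 11, at least 37.2-fold higher (5.79 ± 0.40), and Tal1 had 2683 and 2695 against 34.1 and 29.5, at least 37.0-fold higher (5.67 ± 0.19). Lmo2, their partner in a shared complex, had 5144 and 5417 against 547 and 426 (3.39 ± 0.18). The 2 that fell were Foxc1 (-1.10 ± 0.15, adjusted p = 0.00542), which is also a somite and mesenchyme factor, and Tal2 (-1.0 ± 0.23). The call of Tal2 was lost without Flk1-positive replicate 1 or either Flk1 KO array (adjusted p = 0.0890, 0.110 and 0.0784).

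Endothelial junction and surface genes had the highest median of the 31 lists, 5.19, and 33 of 38 rose while 1 fell. Of the 33, 15 were not above background on either Flk1 KO array. The summed signal of the 38 genes was 119720 and 120930 in Flk1-positive cells, 9278 and 9014 in Flk1 KO embryos, and 13882 and 13139 in WT embryos. A large part of the embryo sums came from Podxl, the member that fell, with 4607 and 4791 in Flk1 KO and 5129 and 5024 in WT embryos. Esam, a junctional adhesion molecule, had 6802 and 7291 against 35.6 and 49.2 (6.79 ± 0.16). Cd93, a C-type lectin receptor of endothelium, had 4743 and 5001 against 23.4 and 33.4, at least 66.8-fold higher (6.62 ± 0.15). Its relative Clec14a had 3231 and 3157 against 16.6 and 13.9, at least 43.9-fold higher (6.45 ± 0.12). Mrc1, the mannose receptor, had 4639 and 4717 against 35.9 and 29.1, at least 64.1-fold higher (6.44 ± 0.13). Cldn5, the main claudin of endothelial tight junctions, had 5084 and 5226 against 43.2 and 36.5, at least 70.7-fold higher (6.40 ± 0.13). The adhesion receptor gene Adgrl4 had 1398 and 1434 against 9.10 and 2.31, at least 19.6-fold higher (5.73 ± 0.17). In each of these 6 the pairs of arrays lay far closer to each other than the groups did. Podxl, a sialomucin that epithelia express too, was the single member that fell, with 2783 and 2724 against 4607 and 4791 (-0.77 ± 0.12), and without Flk1-positive replicate 2 its adjusted p was 0.0520. Without Flk1-positive replicate 1 the count of members that fell was 2. Lyve1 and Mrc1 are also known from macrophages, some markers of which are given below with the blood genes.

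The promoters of the 4 largest rises of that list among genes taken from the RefSeq promoter table (build GRCm38.p6) are shown because these genes moved together. Each is the 250 bases before the annotated start, read along the gene: Clec14a on the minus strand at chr12:58269259-58269508, Mrc1 on the plus strand at chr2:14229164-14229413, Cldn5 on the plus strand at chr16:18776597-18776846 and Adgrl4 on the plus strand at chr3:151437632-151437881. Capitals mark matches, on either strand, to 4 motifs. AGGAAG is a core of ETS factor sites, and CGGAAG is another such core. Sites of GATA factors hold AGATAA, and ACAAT is known from sites of SOX factors.
Clec14a: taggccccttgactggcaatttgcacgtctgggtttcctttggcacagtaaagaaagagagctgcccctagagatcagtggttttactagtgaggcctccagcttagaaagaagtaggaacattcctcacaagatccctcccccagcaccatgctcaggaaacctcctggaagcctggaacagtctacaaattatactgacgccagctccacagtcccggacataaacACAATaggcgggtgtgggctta
Mrc1: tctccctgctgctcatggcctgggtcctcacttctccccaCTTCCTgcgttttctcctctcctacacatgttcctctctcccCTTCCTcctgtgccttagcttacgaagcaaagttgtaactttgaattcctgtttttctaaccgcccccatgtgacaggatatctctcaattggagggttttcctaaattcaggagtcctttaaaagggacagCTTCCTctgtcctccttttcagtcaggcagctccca
Cldn5: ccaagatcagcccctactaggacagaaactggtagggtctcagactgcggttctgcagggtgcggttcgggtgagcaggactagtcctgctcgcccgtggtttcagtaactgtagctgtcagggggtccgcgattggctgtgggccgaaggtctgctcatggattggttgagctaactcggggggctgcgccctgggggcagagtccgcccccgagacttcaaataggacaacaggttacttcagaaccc
Adgrl4: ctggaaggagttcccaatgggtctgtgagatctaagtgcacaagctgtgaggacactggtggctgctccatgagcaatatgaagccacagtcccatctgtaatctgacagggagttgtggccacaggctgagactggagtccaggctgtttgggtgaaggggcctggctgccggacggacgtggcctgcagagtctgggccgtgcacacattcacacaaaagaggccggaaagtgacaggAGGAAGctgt
Mrc1 held 3 matches to AGGAAG, Adgrl4 held 1, Clec14a held 1 to ACAAT, and Cldn5 held none of the 4 in this window. No matches overlapped. Promoters of 20 genes of the list were in the table, and AGGAAG was found in 12 of them (60%), against 27.8% of the promoters of 12198 tested genes and 29.2% of all 27025 in the table. CGGAAG was found in 2 of the 20 against 22.3% of tested genes, AGATAA in 1 against 6.60%, and ACAAT in 5 against 19.2%. These are counts of letters in a short window, given without a test.

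Of 29 endothelial signalling and cytoskeletal genes, 27 rose and 1 fell (median 3.75). Gimap4, a GTPase of lymphocytes and endothelium with close relatives in the same family that its probe set may not tell apart, had 5130 and 4885 against 34.6 and 9.77, at least 68.6-fold higher (6.90 ± 0.30). It was not above background on either Flk1 KO array. The member that fell, Rgs12 (-0.86 ± 0.14), had an adjusted p of 0.0553 without Flk1-positive replicate 2. Of 21 vascular matrix genes, 14 rose and 3 fell (median 1.98). Nid1, which links laminin to collagen IV in basement membranes, had 7579 and 8147 against 296 and 383 (4.46 ± 0.17). Egfl7, a matrix protein secreted by endothelium, had 7066 and 6808 against 379 and 258 (4.38 ± 0.20). Col4a1, a chain of collagen IV, was bright in both groups, with 18621 and 19486 against 4700 and 4551 (2.04 ± 0.12). The laminin chain Lama5 fell, from 716 and 713 to 291 and 320 (-1.17 ± 0.17), as did the proteoglycan agrin, Agrn, from 3313 and 3254 to 1086 and 1091 (-1.57 ± 0.12). Lama1, the third that fell (-0.84), had adjusted p-values of 0.0554 and 0.0785 without Flk1-positive replicate 1 or 2.

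Of 17 arterial markers, 7 were higher and 3 lower (median 0.44), and the 17.6% that were lower lay near the 19.1% over all genes. Gja4, a connexin of arterial endothelium, had 1861 and 1898 against 32.5 and 23.1, at least 25.9-fold higher (5.27 ± 0.16). Dll4, the Notch ligand of arterial endothelium, had 966 and 1162 against 20.8 and 14.8, at least 14.8-fold higher (4.78 ± 0.21). Acvrl1, a BMP9 receptor, had 806 and 873 against 56.4 and 53.4 (3.49 ± 0.14). The 3 that fell were Cxcl12, a chemokine (120 and 87.5 against 848 and 676, -2.65 ± 0.20), its receptor Cxcr4 (-1.23 ± 0.14) and the Notch ligand Dll1 (-2.14 ± 0.16). Efnb2, the ephrin that marks arteries later, did not pass the test (-0.10).

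Among 9 venous and lymphatic markers, 6 rose and 1 fell (median 1.33). Emcn, a sialomucin of veins and capillaries, had 2705 and 2672 against 58.1 and 17.5 (5.60 ± 0.33). Aplnr, the apelin receptor, had 23318 and 25300 against 5261 and 7287 (1.97 ± 0.19), so it was bright in both groups. The podoplanin gene Pdpn, which mesothelium and epithelia also express, fell from 716 and 1193 to 183 and 103 (-2.57 ± 0.34). The vein and lymphatic factors Nr2f2 (0.04) and Prox1 (-0.09) did not pass the test.

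Of 10 endocardium genes, 6 rose and 4 fell (median 1.98). Hapln1, which links hyaluronan in cardiac jelly, had 10229 and 10765 against 881 and 1108 (3.38 ± 0.16). Nfatc1, a factor of endocardium, had 1086 and 1173 against 109 and 152 (2.93 ± 0.18), and Klf2, a flow-responsive factor, had 1139 and 1184 against 64.5 and 65.2 (3.77 ± 0.18). The 4 that fell are also known from myocardium or mesenchyme, and whether that bears on their falls was not tested. Gata5 (-1.58 ± 0.16) and the hyaluronan synthase Has2 (-1.17 ± 0.16) kept their calls whichever compared array was left out. Gata4 and Tbx20 lost theirs without Flk1-positive replicate 2 or Flk1 KO replicate 2 (adjusted p = 0.144 and 0.0786 for Gata4, 0.137 and 0.0762 for Tbx20), Gata4 also without Flk1 KO replicate 1 (0.118) and Tbx20 also without Flk1-positive replicate 1 (0.103).

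Signalling pathways used in many tissues split by member. In Notch signalling 6 of 21 genes rose and 7 fell, with a median of -0.04 whose sign changed under several settings. The receptors Notch4 (1141 and 1066 against 72.1 and 66.3, 3.63 ± 0.22) and Notch1 (2839 and 2960 against 523 and 562, 2.37 ± 0.13) rose with Dll4, and so did the target genes Hey1 (1.81 ± 0.17) and Nrarp (1.40 ± 0.14) and the glycosyltransferase Mfng (2.38 ± 0.15). Genes of the somite clock and of neural tissue fell. Dll3 had 65.1 and 84.2 against 879 and 825 (-3.19 ± 0.18), Hes7 had 101 and 70.9 against 467 and 575 (-2.34 ± 0.20), and Hes5 had 8.17 and 25.3 against 372 and 253, at least 3.77-fold lower (-3.14 ± 0.29).

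In BMP and TGF-beta signalling 8 of 25 genes were higher and 9 lower, with a median of -0.37 that became -0.23 without Flk1-positive replicate 1 and -0.13 without Flk1 KO replicate 1. The genes that rose included Eng, a co-receptor of endothelium (3490 and 3337 against 87.6 and 71.5, 5.09 ± 0.22), Tgfb1, a ligand (3315 and 3345 against 144 and 107, 4.52 ± 0.18), and Tgfbr2, its receptor (4292 and 4205 against 215 and 189, 4.26 ± 0.15). Bmp6 (2.22 ± 0.14) and Bmp2 (1.32 ± 0.18) rose too. Those that fell included Bmp5 (208 and 132 against 804 and 879, -2.20 ± 0.22) and the targets Msx2 (202 and 144 against 956 and 1314, -2.57 ± 0.23), Id4 (69.2 and 73.9 against 493 and 493, -2.47 ± 0.12) and Id2 (1574 and 1496 against 6419 and 7477, -2.16 ± 0.14).

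Axon guidance genes, some of which also guide vessels, gave 7 of 29 higher and 14 lower (median -0.53). Plxnd1, the semaphorin receptor of endothelium, had 6040 and 6442 against 101 and 101 (5.67 ± 0.14). Sema3g had 879 and 911 against 76.0 and 59.0 (3.37 ± 0.15), whereas Sema3e, a ligand of Plxnd1, had 53.9 and 71.7 against 623 and 850 (-3.16 ± 0.21). The receptor and this ligand thus differed in opposite directions. Ntn1, a netrin of the floor plate, had 77.8 and 21.6 against 1521 and 1816, at least 19.3-fold lower (-4.68 ± 0.39). Epha7, an ephrin receptor of neural tissue, had 18.5 and 31.4 against 654 and 900, at least 9.06-fold lower (-4.10 ± 0.23).

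Blood genes rose with the endothelial ones. Circulation had not begun at this age, and the embryo groups are the embryo proper. Whether the tissue taken bears on these rises was not tested. Of 20 tested primitive erythroid genes, 13 rose and 3 fell (median 1.83). Hbb-bh1, an embryonic beta-like globin, had 28584 and 29097 in Flk1-positive cells against 35.2 and 27.2, at least 394-fold higher (9.10 ± 0.34). In WT embryos its signals were 484 and 225, also far below those of Flk1-positive cells. Hba-x, the embryonic alpha-like globin, had 7677 and 8996 against 70.0 and 7.84 (7.33 ± 0.57), and Hbb-y had 5131 and 5011 against 66.0 and 13.8 (6.51 ± 0.69). In both, 1 Flk1 KO array lay above background and the other below it. The erythroid factors Gata1 (639 and 714 against 45.6 and 73.6, 3.12 ± 0.27), Klf1 (757 and 700 against 55.1 and 19.3, 3.74 ± 0.30) and Nfe2 (571 and 532 against 7.53 and 1.84, at least 7.82-fold higher) rose as well. The summed signal of this list was 48567 and 50068 in Flk1-positive cells and 6428 and 5928 in Flk1 KO embryos. Hbb-bh1 alone gave 28584 and 29097 of the Flk1-positive sums. In the Flk1 KO sums, Tfrc gave 4395 and 4341 and Bpgm 1333 and 1072, and neither is among the genes that rose. The sums are therefore no measure of the globin signal left in Flk1 KO embryos. The 3 that fell were Tfrc, Bpgm and Rhd, with differences of -0.56, -1.12 and -1.10. Tfrc and Rhd lost their calls in turn: Tfrc without any 1 of the 4 compared arrays (adjusted p = 0.0521 to 0.102), and Rhd without Flk1-positive replicate 2 or either Flk1 KO array (adjusted p = 0.0630 to 0.113). Bpgm had an adjusted p of 0.0514 without Flk1-positive replicate 2.

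Of 23 tested genes of other blood cells, 20 rose and the other 3 did not pass the test (median 1.94). Plek, a protein kinase C substrate of platelets and leukocytes, had 1384 and 1461 against 52.7 and 44.6, at least 19.7-fold higher (4.36 ± 0.13). Runx1, the factor required for definitive blood formation, had 283 and 311 against 2.33 and 7.02, at least 4.35-fold higher (3.61 ± 0.39). Pf4, a platelet and megakaryocyte chemokine, had 992 and 864 against 121 and 31.0 (3.45 ± 0.46), and Itga2b, an integrin of early blood progenitors and platelets, had 2457 and 2367 against 266 and 190 (3.30 ± 0.18). The Flk1-positive fraction thus held RNA of blood genes beside that of endothelial genes. Ptprc, the pan-leukocyte CD45 gene, was dim in both groups, with 64.9 and 83.3 against 44.4 and 5.43, and did not pass the test (1.17 ± 0.43). Csf1r, a macrophage receptor, had 384 and 324 against 110 and 97.5 (1.58 ± 0.20). Laptm5, another member of this list, rose by more, with 962 and 981 against 78.7 and 27.3 (3.83 ± 0.34). These genes are a selection, and the share of macrophages in the fraction was not tested. The list's summed signal was 16876 and 17008 in Flk1-positive cells and 3250 and 3224 in Flk1 KO embryos, and its part in the rise of genes that endothelium and blood share was not tested.

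Immediate early genes, which cells switch on within minutes of stimulation or stress, were higher in Flk1-positive cells in 17 of 20 cases and lower in 1 (median 1.77). Fos had 3008 and 3169 against 111 and 70.9 (4.81 ± 0.21), Egr1 had 1449 and 1492 against 96.0 and 75.5 (3.80 ± 0.15), and Atf3 had 1254 and 1329 against 150 and 126 (3.05 ± 0.14). Dusp1, a phosphatase of the same response, had 4833 and 4484 against 562 and 657 (2.89 ± 0.14). In all 4 the arrays of the groups did not overlap. Egr2, which also patterns the hindbrain, fell from 332 and 273 to 73.2 and 56.9 (-1.90 ± 0.17). Of 12 heat shock genes, 3 were higher (25%, against 12.9% of all genes) and 1 was lower, with a median of 0.14. Apart from the test, both Flk1-positive arrays lay above both Flk1 KO arrays for 8 of the 12 and below them for 2. Over all genes these shares were 29.2% and 39.9%. Hspa1b, an inducible chaperone with a near-identical copy in Hspa1a, had 1067 and 1163 against 188 and 219 (2.34 ± 0.14), while the constitutive Hspa8 had 39473 and 35122 against 34707 and 30648 and did not pass the test (0.19 ± 0.14). The heat shock count of 3 fell to 1 without Flk1-positive replicate 1 or Flk1 KO replicate 1 and to 2 without either other compared array. Handling of cells before RNA extraction is not described in the sources used here, and it cannot be told apart from cell type.

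RNA control probe sets moved with the groups too. The log2 difference between 3' and 5' probe sets of Actb was 0.26 and 0.29 in Flk1-positive cells and 0.47 and 0.58 in Flk1 KO embryos. For Tfrc it was 1.26 and 1.35 against 0.96 and 1.05, the other way, and for Gapdh it was -0.32 and -0.36 against -0.33 and -0.37, which overlapped. Their part in any result here was not tested.

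Genes of other tissues were lower in Flk1-positive cells. Of 147 tested genes in 7 lists for cardiomyocytes, mural and mesenchymal cells, neuroectoderm, neural crest, somites, gut and yolk sac endoderm, 117 fell and 7 rose (median -2.14). Of the 117, 44 were not above background on either array of Flk1-positive cells. Over all probe sets, 51.5% lay above background in Flk1-positive replicate 1 and 56.4% in Flk1-positive replicate 2. The count is therefore not read as a trait of these genes. Sox2, a factor of neural stem cells, had the largest difference on the log2(signal + 21.6) scale among genes that fell and met the naming rule, with 110 and 50.5 in Flk1-positive cells against 4178 and 4992 in Flk1 KO embryos (-5.56 ± 0.30, adjusted p = 0.000354). Irs4, an adaptor of insulin signalling, had 58.1 and 68.4 against 2728 and 3294 (-5.16 ± 0.17). Arg1, the arginase gene, had 77.9 and 57.9 against 3119 and 3102 (-5.14 ± 0.16). These 3 had 1 array of Flk1-positive cells above background. Cdx1, a factor of the posterior embryo, had 4.75 and 4.62 against 724 and 1042, at least 10.2-fold lower (-5.08 ± 0.21). Epcam, an epithelial adhesion molecule, had 9.12 and 53.2 against 1534 and 1498, at least 17.6-fold lower (-5.0 ± 0.41). Eras, a Ras relative of pluripotent cells, had 23.2 and 8.61 against 805 and 1585, at least 13.2-fold lower (-4.97 ± 0.36). Mycl, a relative of Myc, had 9.75 and 12.0 against 762 and 849, at least 9.48-fold lower (-4.67 ± 0.16). Among the 15 largest falls, Crabp2 and Actc1 were above background in both groups.

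**Figure D3:**
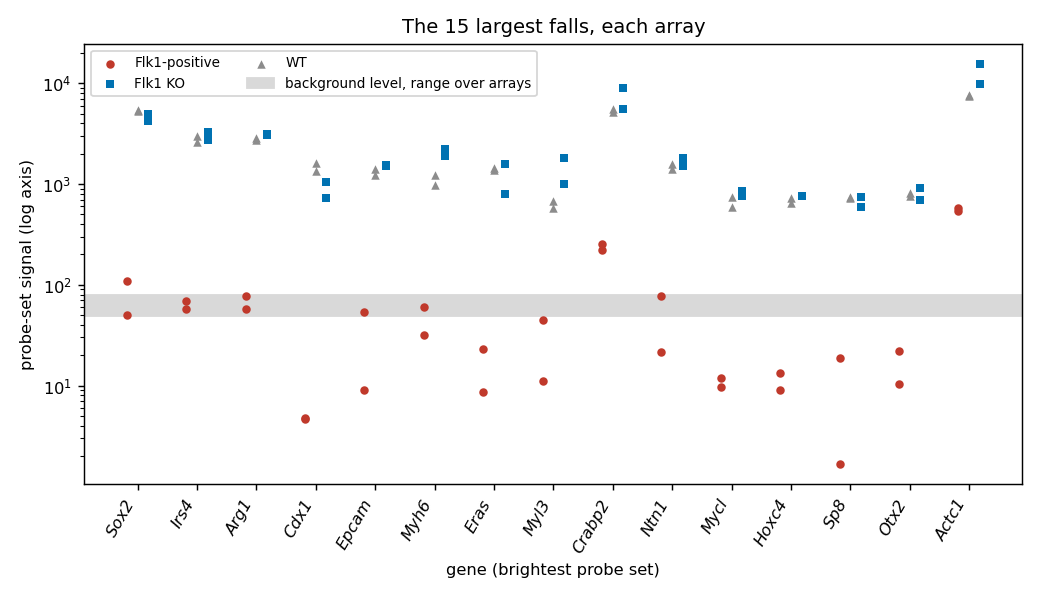
Signal on a log axis for the 15 genes with the largest falls, with 2 points per group and the background levels of 49.1 to 78.3 as a grey band. Flk1-positive points lie in or below the band except for both of Crabp2 and Actc1 and 1 of Sox2, while Flk1 KO and WT points lie together at or above a signal of 578.

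Among 30 cardiomyocyte genes, 23 fell and 1 rose (median -2.20). Myh6, the atrial myosin heavy chain, had 60.1 and 31.7 against 2251 and 1905, at least 24.0-fold lower (-4.99 ± 0.25). Actc1, cardiac actin, had 584 and 539 against 15550 and 9953 (-4.42 ± 0.23), and Myl7, the atrial light chain, had 421 and 380 against 10707 and 7347 (-4.40 ± 0.21). Over the 23 genes that fell, the median signal in Flk1-positive cells was 7.96% of that in Flk1 KO embryos. Mef2c, a factor of muscle that endothelium also uses, was the 1 that rose, with 1948 and 1866 against 578 and 666 (1.59 ± 0.14). The 2 Flk1 KO arrays differed for this list, with summed signals of 58705 and 43330, both above the 33307 and 33072 of WT embryos and the 8795 and 8588 of Flk1-positive cells. Of 17 mural and mesenchymal genes, 10 fell and the other 7 did not pass the test (median -0.88). Pdgfra, a receptor of mesenchyme, had 341 and 503 against 2934 and 4068 (-2.99 ± 0.26), and Acta2, smooth muscle actin, had 1360 and 1258 against 9255 and 6068 (-2.50 ± 0.22).

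Neuroectoderm genes fell in 21 of 25 cases, with 1 higher (median -2.59), and 14 of the 25 were not above background on either array of Flk1-positive cells. Over all probe sets, 51.5% and 56.4% lay above background on these arrays, so the 14 are not read as a trait of neural genes. Otx2, a factor of the forebrain and midbrain, had 22.1 and 10.4 against 700 and 918, at least 9.45-fold lower (-4.46 ± 0.22). Sox1, which marks the neural plate, had 36.1 and 15.1 against 751 and 746, at least 8.84-fold lower (-4.06 ± 0.25). Nes, an intermediate filament gene that endothelium also expresses, was the 1 that rose (593 and 611 against 379 and 277, 0.85 ± 0.19). It lost its call without Flk1-positive replicate 1 or 2 or Flk1 KO replicate 2 (adjusted p = 0.0868, 0.0949 and 0.0629). All 14 neural crest genes passed the test, 12 lower and 2 higher (median -2.04). Pax3 had 21.0 and 19.9 against 388 and 493, at least 5.27-fold lower, and Tfap2a had 75.8 and 20.0 against 637 and 694, at least 7.88-fold lower. The 2 that rose, Ets1 and the endothelin receptor Ednrb (1377 and 1408 against 394 and 421, 1.72 ± 0.13), are endothelial genes as well.

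Of 22 somite and presomitic mesoderm genes, 16 fell and 1 rose (median -2.12). Meox1, a somite homeobox gene, had 66.8 and 86.0 against 1547 and 1342 (-3.91 ± 0.16), and Tbx6, a factor of presomitic mesoderm, had 44.2 and 30.3 against 718 and 695, at least 8.36-fold lower (-3.64 ± 0.19). Aldh1a2, which makes retinoic acid, had 208 and 162 against 2561 and 3154 (-3.80 ± 0.18). The 1 that rose was Cyp26a1 (0.47 ± 0.13), which breaks retinoic acid down, and its call was lost without any 1 of the 4 compared arrays (adjusted p = 0.0819 to 0.199). Gut endoderm and epithelial genes fell in 20 of 22 cases and had the lowest median of the 31 lists, -2.97. Esrp1, an epithelial splicing factor, had 32.2 and 40.0 against 1089 and 1297, at least 13.9-fold lower (-4.39 ± 0.16). Cdh1, the epithelial cadherin, had 123 and 123 against 1600 and 2594 (-3.83 ± 0.24), and Cxadr, a junction protein, had 99.9 and 86.2 against 1764 and 2315 (-4.16 ± 0.18). The 2 that rose were Sox17 and Pdx1, and Pdx1 (79.3 and 71.1 against 11 and 21.5, at least 1.32-fold higher) lost its call without Flk1-positive replicate 1 or 2 or Flk1 KO replicate 1 (adjusted p = 0.0651, 0.0519 and 0.0684). Yolk sac endoderm genes fell in 15 of 17 cases by less (median -1.71). Ttr, a thyroid hormone carrier, had 2641 and 2511 against 9054 and 9504 (-1.84 ± 0.13), so Flk1-positive cells retained a clear signal.

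Of 26 Hox and Cdx genes, 14 fell and 3 rose (median -1.44). Hoxc4 had 8.98 and 13.2 against 758 and 768, at least 9.01-fold lower (-4.59 ± 0.14), and Hoxb1 had 94.1 and 46.1 against 1022 and 1101 (-3.61 ± 0.27). Against this, Hoxb5, which is known to regulate Kdr, had 799 and 827 against 194 and 200 (1.93 ± 0.14), and Hoxa10 had 303 and 242 against 53.7 and 70.1 (1.82 ± 0.21). The third that rose, Hoxd8 (0.77 ± 0.14), lost its call without Flk1-positive replicate 1 or either Flk1 KO array (adjusted p = 0.0511 to 0.0806).

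Wnt genes were lower in 20 of 25 cases, and the other 5 did not pass the test (median -2.18). The falls covered ligands such as Wnt5b (35.8 and 54.6 against 566 and 625, -3.22 ± 0.22) and Wnt3a (19.9 and 16.3 against 292 and 277, at least 3.51-fold lower), the inhibitor Frzb (190 and 130 against 1012 and 2033, -3.02 ± 0.36) and the target Axin2 (265 and 199 against 1356 and 1669, -2.60 ± 0.19). FGF genes fell in 13 of 20 cases and rose in 1 (median -1.12), and the 13 became 8 without Flk1-positive replicate 2. Fgfr2, a receptor of epithelia, had 196 and 214 against 1774 and 1482 (-2.86 ± 0.16), and Fgf8 had 57.6 and 49.0 against 361 and 375, at least 4.47-fold lower (-2.38 ± 0.13). Dusp6, a feedback phosphatase of the pathway, was the 1 that rose, with 4036 and 4188 against 2107 and 2201 (0.93 ± 0.13, adjusted p = 0.00539).

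Of 14 retinoic acid genes, 6 fell and 2 rose, with a median of -0.65 that became -0.42 without Flk1 KO replicate 1. The binding proteins Crabp2 (220 and 252 against 8888 and 5554, -4.78 ± 0.24) and Crabp1 (962 and 969 against 6854 and 5575, -2.65 ± 0.15) fell along with Aldh1a2. The rises of Cyp26a1 and Cyp26b1 were both lost without Flk1-positive replicate 1 or 2 (adjusted p = 0.199 and 0.108 for Cyp26a1, 0.134 and 0.0710 for Cyp26b1). Of 17 pluripotency and early embryo genes, 8 fell and 2 rose (median -0.92), and without Flk1-positive replicate 2 the 8 became 5, the 2 became 1 and the median became -0.46. Without Flk1 KO replicate 2 the 2 became 1 as well. Dppa4 rose, with 280 and 302 against 6.25 and 6.87, at least 4.26-fold higher (3.47 ± 0.33). Tdgf1, a Nodal co-receptor, had 4.33 and 6.28 against 189 and 147, at least 2.17-fold lower (-2.81 ± 0.16). Pou5f1, a pluripotency factor, had 60.2 and 46.6 against 169 and 470, at least 3.51-fold lower (-2.03 ± 0.44), and its adjusted p was 0.0676 and 0.0891 without Flk1-positive replicate 1 or 2.

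The last lists are set beside the background of 12.9% higher and 19.1% lower. Cell cycle genes had 7.69% higher and 7.69% lower, both under the background. The p53 target and apoptosis genes stood near it, with 14.3% and 21.4%. Hypoxia and glycolysis genes lay above it in both directions, with 20% and 30%. Of 26 cell cycle genes, 2 rose and 2 fell (median -0.14), and each count became 1 without Flk1-positive replicate 1 or 2. Without Flk1 KO replicate 1 the falls became 1, and without Flk1 KO replicate 2 the rises. The median was -0.09 without Flk1-positive replicate 1 or 2 and -0.08 without Flk1 KO replicate 1. Ccnd2 had 2897 and 2979 against 9656 and 7927 (-1.57 ± 0.15) and Ccnd3 had 6282 and 6710 against 3383 and 2525 (1.15 ± 0.18), but only 1 of the 3 Ccnd3 probe sets was called, and the call was lost with the median over them (adjusted p = 0.293). The proliferation marker Mki67 had 5086 and 5926 against 4062 and 4287 and did not pass the test (0.39 ± 0.16). Of 14 p53 target and apoptosis genes, 2 rose and 3 fell (median -0.12), and the 2 became 1 without Flk1-positive replicate 1 or 2 or Flk1 KO replicate 1. Leaving out Flk1-positive replicate 1 or 2 gave medians of -0.29 or -0.04, and leaving out Flk1 KO replicate 1 or 2 gave -0.18 or -0.06. Of 20 hypoxia and glycolysis genes, 4 rose and 6 fell (median -0.24), and the 4 became 1 without Flk1-positive replicate 1 or 2, while the 6 became 4 without either of these or Flk1 KO replicate 1. The median was -0.03 without Flk1 KO replicate 1 and -0.40 without Flk1 KO replicate 2. Ddit4, a stress-induced inhibitor of mTOR signalling, had 553 and 532 against 3815 and 3379 (-2.68 ± 0.14), and Egln3, an oxygen sensor, had 1348 and 1448 against 421 and 535 (1.52 ± 0.16).

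**Figure D4:**
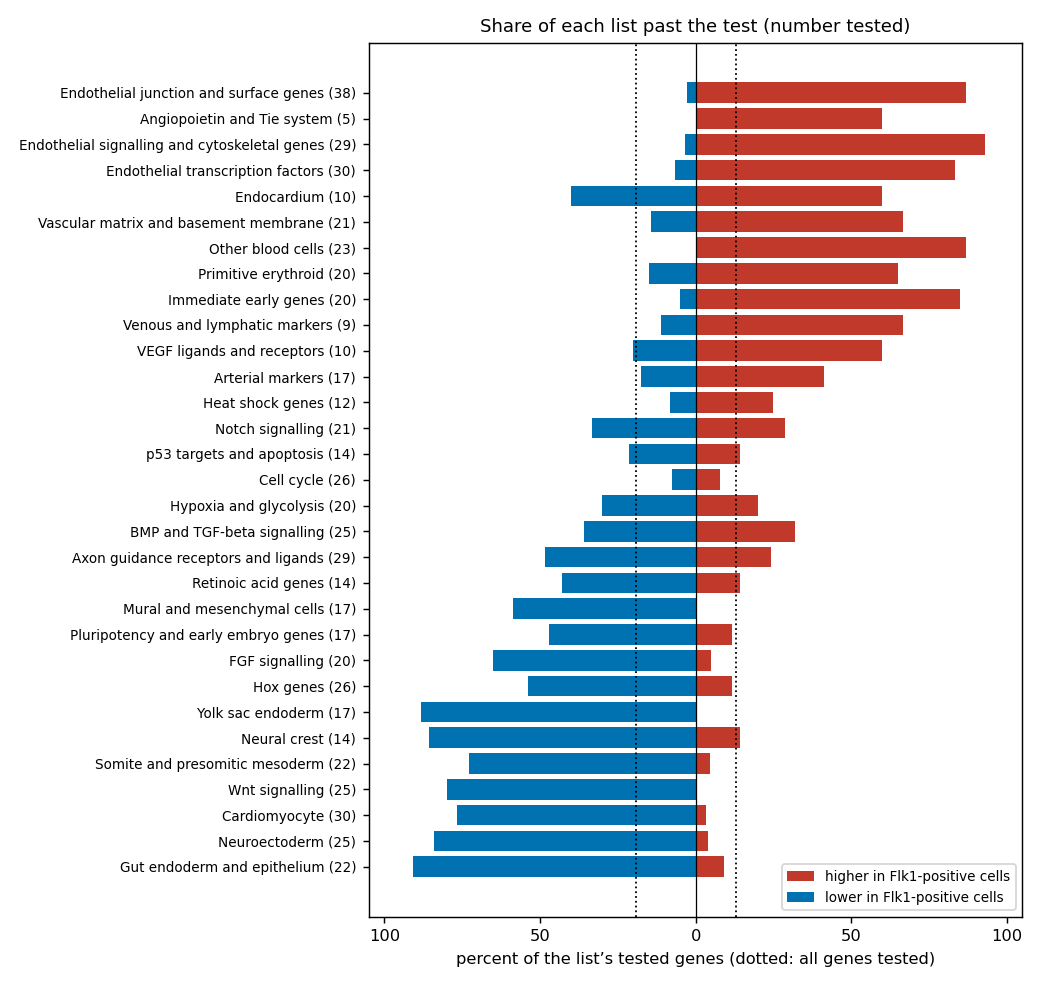
Bars give the percent of each list's tested genes that were higher (red, right) or lower (blue, left) in Flk1-positive cells, ordered by median difference, with the number tested in brackets and the shares over all genes, 12.9% and 19.1%, as dotted lines. Vascular, blood and immediate early lists lean to the right and lists of other tissues to the left, while cell cycle genes stay inside both dotted lines.

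WT embryos, which hold endothelium among all their other cells, give a scale for these differences. On linear signals, with the Flk1 KO mean as 0 and the Flk1-positive mean as 1, the WT mean of the 451 genes that rose at least 4-fold had a median position of 0.0419 (quartiles 0.0160 and 0.0730). The position was at or under 0 for 64 of them and over the midpoint for 2. Its median over the genes that rose was 0.0396 for endothelial junction and surface genes, 0.0112 for primitive erythroid genes, 0.0132 for other blood cells and 0.0271 for immediate early genes. These median positions were thus near 0 in every one of these lists, but the bright Flk1-positive signals set the length of this scale. A position near 0 therefore does not mean that WT and Flk1 KO signals were alike. Among the 38 endothelial junction and surface genes, 27 were brighter on each WT array than on any Flk1 KO array. For 2 of the 38 the order was the reverse.

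Set side by side, the contrast with Flk1 KO embryos and the contrast with WT embryos, which share the 2 arrays of Flk1-positive cells, differed in their medians by an amount that varied from list to list. Against WT embryos 12.2% of genes were higher and 17.5% lower. The median of endothelial junction and surface genes was 5.19 against Flk1 KO and 3.81 against WT embryos. It was 4.28 and 3.22 for the angiopoietin system, 3.75 and 2.77 for signalling and cytoskeletal genes, and 2.94 and 2.16 for transcription factors. The gap was smaller for vascular matrix (1.98 and 1.75) and VEGF genes (1.26 and 1.16), and venous and lymphatic markers had 1.33 and 1.34. For primitive erythroid genes the medians were 1.83 and 1.78, for other blood cells 1.94 and 1.91, and for immediate early genes 1.77 and 1.48. The medians of Flk1 KO minus WT were -1.23 for endothelial junction and surface genes, -0.05 for primitive erythroid genes, 0.04 for other blood cells and -0.15 for immediate early genes. The differences between these medians were not tested. At a limma adjusted p under 0.05, 20 genes (0.132%) had lower signals in Flk1 KO embryos than in WT ones, and all 20 were among those higher in Flk1-positive cells than in Flk1 KO embryos; that count uses the same Flk1 KO arrays on both sides.

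**Figure D5:**
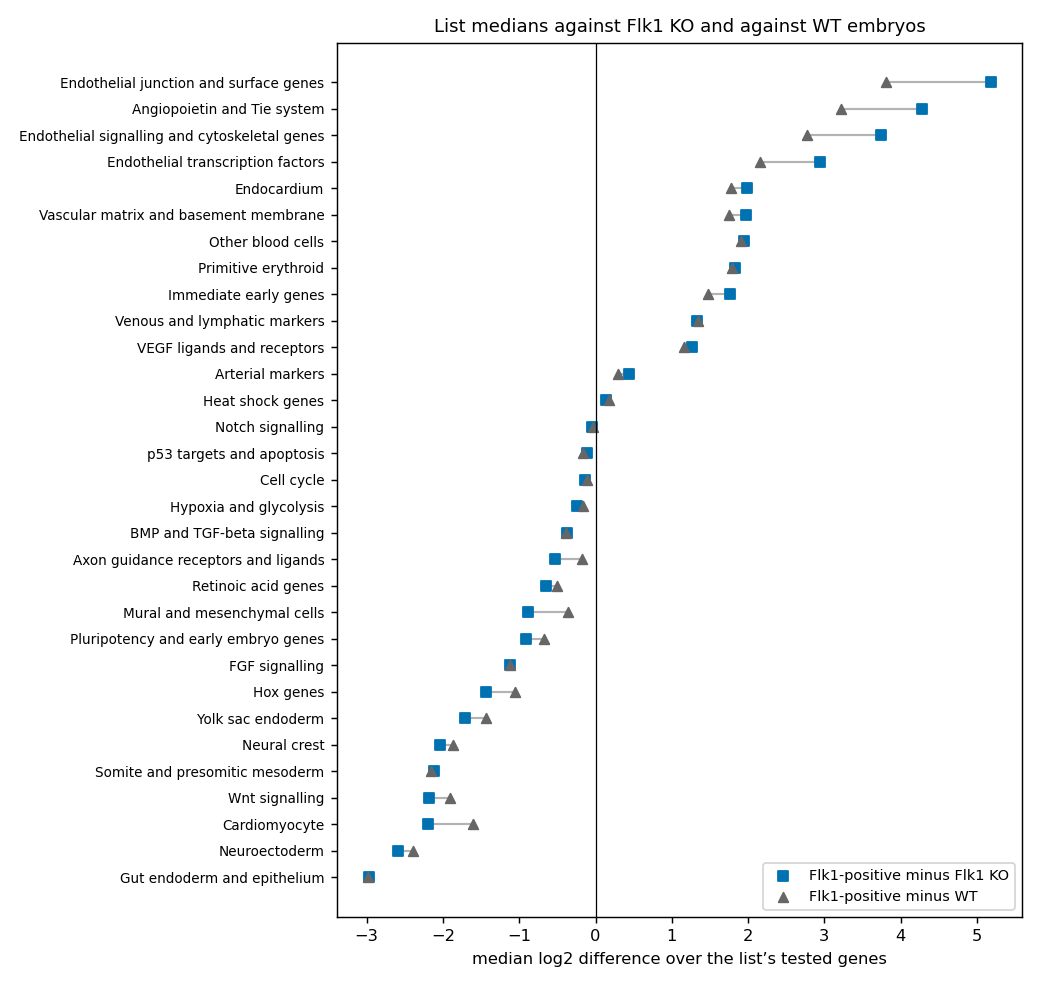
For each of the 31 lists, the median log2 difference over its tested genes is shown against Flk1 KO embryos (squares) and against WT embryos (triangles), joined by a line; both use the same 2 arrays of Flk1-positive cells. The squares lie well to the right of the triangles for junction and surface genes (5.19 and 3.81), nearly on them for venous and lymphatic markers (1.33 and 1.34) and in the blood lists, and to the left for cardiomyocyte genes (-2.20 and -1.61).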

How the data were processed

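Total RNA purified with an RNeasy Micro kit was labelled with biotin and hybridised to Affymetrix GeneChips, per the labels' protocols. What the authors deposited is a signal per probe set on a linear scale, with a floor of 1 and the same trimmed mean on every array. GeneSpring appears in the design text, and the sources used here do not give the program behind the signals. Names came from the annotation of the platform, which gave 1 gene symbol for 34958 of 45101 probe sets, several for 932 and none for 9211; those with several or none stay unnamed.

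Signals were transformed as log2(signal + 21.6), with the 25th percentile of the signals as pseudocount. Arrays were not rescaled, their medians differing by at most 0.147 (log2). Control probe sets (64) and those with a mean under the 25th percentile were left out. Group means over all 6 arrays were fitted in R 4.3.3 by the lmFit and eBayes functions of limma 3.58.1 (3 residual degrees of freedom). Two-sided p-values were adjusted after Benjamini and Hochberg across the 34621 probe sets tested, at a threshold of 0.05. The fit was tested on simulated data with 100 probe sets changed 2-fold and 100 changed 4-fold. It recovered 11% of the former and 83% of the latter, with 5 false calls among 99. A gene that did not pass the test may therefore still differ. Far more probe sets were called in the real data, so these shares need not hold there.

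Lists are described by counts and medians, without a set test. The members and lists were chosen with earlier results of these data known. Named genes are Kdr; the 15 largest rises and 15 largest falls past the test (non-overlapping arrays, brighter mean above background, no clone names); from each list up to 4 rising and 4 falling members past the test by size, or, where under 2 passed, the 2 with the largest difference; the members called against their list's majority; and the genes whose promoters are shown. The text gives a selection of them. The other members named (Cdh5, Pecam1, Sox7, Etv2, Tal1, Lmo2, Nrp1, Nrp2, Vegfa, Angpt1, Angpt2, Efnb2, Nr2f2, Prox1, Col4a1, Gata1, Klf1, Itga2b, Ptprc, Csf1r, Hspa8, Ttr, Axin2, Fgf8 and Mki67) were chosen for their roles after their values were seen. Promoter sequences come from RefSeq tables. The pairing of arrays by the replicate numbers in their titles was checked. Alternatives were the pseudocount, filter, normalization, prior, arrays in the fit, replicate block, probe sets per gene, a 2-fold limit and leaving out each array.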

Additional observations from a re-analysis of the deposited data

How the results depend on the processing

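Of the calls at an adjusted p under 0.05, none changed direction under the alternatives run, except 8 when a gene's probe sets were replaced by their median. Counts of probe sets higher and lower in Flk1-positive cells were 4654 and 5153. Leaving out 1 array in turn gave 2555 to 3802 higher and 3162 to 3890 lower; leaving out a WT array equals fitting the 4 compared arrays alone, since a lone WT array adds no estimate of spread. A lone array is assumed to vary like the others. A 2-fold limit gave 2696 and 2780. With 1 probe set per gene 2227 and 3284 genes were called, and with the median over probe sets 2175 and 3015; these count genes, of which fewer were tested. The other alternatives stayed within 1.5 times.

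Samples with the same replicate number did not deviate together (correlations of 0.027, 0.0049 and 0.023), and the main fit did not pair them. These correlations cannot tell whether samples with the same number share an origin. With a replicate block 4164 probe sets were higher and 4425 lower. Median centring moved the median over all genes from -0.08 to -0.13 and gave 4130 and 5496.

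The median of Notch signalling genes, -0.04, became 0.24 with the median over probe sets, and ranged from -0.081 without Flk1-positive replicate 2 to 0.20 without Flk1 KO replicate 1, with 0.026 and 0.024 without Flk1-positive replicate 1 and Flk1 KO replicate 2; the cause was not tested. Of 184 genes named by rule, 149 kept their call under all alternatives. Of those 184, 32 lost it when 1 compared array was left out, and the largest difference among the 32 was that of Pou5f1 (-2.03). Signal near background limits what can be said of dim genes.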
